A study of Homo sapiens with 6 samples.

Results

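The genes described here are 10 interferon-induced genes for membrane and small effector proteins, namely RSAD2, CMPK2, IFI44L, IFI44, IFI27, IFI6, IFI35, XAF1, IFITM1 and BST2. They were chosen by name, and each is represented by every probe set that the platform annotation assigns to that gene alone. This gave 14 probe sets for the 10 genes, of 54613 probe sets and 19775 genes measured in all. RSAD2 and IFI44 had 2 probe sets each, XAF1 had 3 and the other genes had 1.

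The data are 6 Affymetrix arrays. All come from the liver cancer line SNU-449, of human origin, grown in RPMI medium with serum. Of these, 3 are of cells labelled as overexpressing USP48, a ubiquitin-specific protease, and 3 are of control cells labelled as carrying an empty vector. Per the labels' protocols, a USP48 lentivirus was applied at a multiplicity of infection of at least 90 for 24 hours, followed by 4 to 6 days in complete medium and selection with puromycin. The sample titles instead speak of transfection, and the genotype labels read USP48 OE and Ctrl. The same protocol text stands on the empty vector samples and describes no separate control virus, and nothing says whether the replicates were separate cultures, so p-values measure only how far these samples vary, which may be technical variation.

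Interferons are secreted when a cell senses viral RNA or DNA. Their receptors activate transcription factors that bind the interferon-stimulated response element (ISRE) in the promoters of many genes. The products of those genes act at successive steps of a viral life cycle. IFITM1 sits in membranes and hinders the entry of viruses, RSAD2 (viperin) makes a nucleotide analogue that ends RNA synthesis, and BST2 (tetherin) holds budding virions at the cell surface. IFI27 and IFI6 are small hydrophobic proteins of mitochondria and the endoplasmic reticulum, and XAF1 promotes apoptosis.

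The promoters of these genes are shown first. Promoter letters were not used to choose the members. The members were however named as interferon-induced genes, many of which hold an ISRE, so their matches are not independent of the choice. Each of the 10 genes had at least 1 window in a RefSeq promoter table of build GRCh38.p14, which gives 250 bases before and 50 bases after each annotated start. A core form of the ISRE, the letters GAAA repeated with any 2 bases between the repeats and searched on both strands, was found in 7 of the 10 genes and in 9 of their 16 windows. It was found in 3.57% of all 35116 windows and in 4.38% of the 27305 genes of that table, and in 22 of the 32 other interferon-induced genes that it held. The members with a match are RSAD2, IFI44L, IFI44, IFI27, IFI6, IFITM1 and BST2, and those without are CMPK2, XAF1 and IFI35. The letters TTCNNNGAA, a core form of the gamma-activated site (GAS), which read the same way on both strands, were found in 4 of the 10 genes (IFI27, IFI35, IFITM1 and BST2) and 5 of their 16 windows. They were found in 7.66% of all windows, 9.38% of all genes and 9 of the 32 other interferon-induced genes. In IFI27, IFITM1 and BST2 a GAS match overlapped an ISRE match. The 2 windows of IFI27 overlap, as do those of IFI44, so the same matches count in both windows of each gene. A match is a description of these letters and not a measured binding site. The 200 bases before the start are given for the 7 genes with a match, 5′ to 3′ on the strand of the gene, with the ISRE letters in capitals.
RSAD2, chr2:6877577-6877776, plus strand: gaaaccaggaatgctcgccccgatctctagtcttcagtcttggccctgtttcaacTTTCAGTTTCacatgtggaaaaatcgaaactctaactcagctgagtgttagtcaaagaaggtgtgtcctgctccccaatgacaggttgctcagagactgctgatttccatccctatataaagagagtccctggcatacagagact
IFI44L, chr1:78620248-78620447, plus strand: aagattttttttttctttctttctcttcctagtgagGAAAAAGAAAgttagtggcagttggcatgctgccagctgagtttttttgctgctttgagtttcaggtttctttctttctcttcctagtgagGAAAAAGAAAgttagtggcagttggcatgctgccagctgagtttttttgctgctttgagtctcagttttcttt
IFI44, chr1:78649589-78649788, plus strand: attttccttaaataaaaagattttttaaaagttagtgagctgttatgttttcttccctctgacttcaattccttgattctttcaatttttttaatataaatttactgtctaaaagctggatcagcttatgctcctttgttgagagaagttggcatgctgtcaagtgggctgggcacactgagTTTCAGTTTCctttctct
IFI27, chr14:94110536-94110735, plus strand: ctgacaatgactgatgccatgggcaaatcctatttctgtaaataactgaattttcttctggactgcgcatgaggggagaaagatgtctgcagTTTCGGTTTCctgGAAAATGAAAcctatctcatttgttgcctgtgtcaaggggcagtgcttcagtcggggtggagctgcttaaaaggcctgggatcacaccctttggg
IFI6, chr1:27672193-27672392, minus strand: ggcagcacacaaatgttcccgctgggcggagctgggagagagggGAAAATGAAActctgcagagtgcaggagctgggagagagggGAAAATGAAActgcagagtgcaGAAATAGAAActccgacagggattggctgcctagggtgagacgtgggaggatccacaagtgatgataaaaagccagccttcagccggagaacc
IFITM1, chr11:313840-314039, plus strand: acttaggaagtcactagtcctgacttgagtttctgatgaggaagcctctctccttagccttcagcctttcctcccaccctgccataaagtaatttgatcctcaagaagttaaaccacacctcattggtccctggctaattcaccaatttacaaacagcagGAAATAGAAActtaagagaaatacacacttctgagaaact
BST2, chr19:17405631-17405830, minus strand: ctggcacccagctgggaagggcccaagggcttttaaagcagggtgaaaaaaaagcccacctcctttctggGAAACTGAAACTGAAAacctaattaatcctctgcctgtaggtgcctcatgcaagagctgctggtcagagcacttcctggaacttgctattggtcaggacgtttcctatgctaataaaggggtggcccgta

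IFI6 held 3 matches, between positions -156 and -84 from its start. In BST2 the 2 matches overlapped, from -130 to -115, and form 1 run of capitals. A further match of IFITM1, from -6 to 4, crosses the start and is therefore left in lower case here. RSAD2 had 2 windows, and only the second one, which is printed, held the letters.

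**Figure D1:**
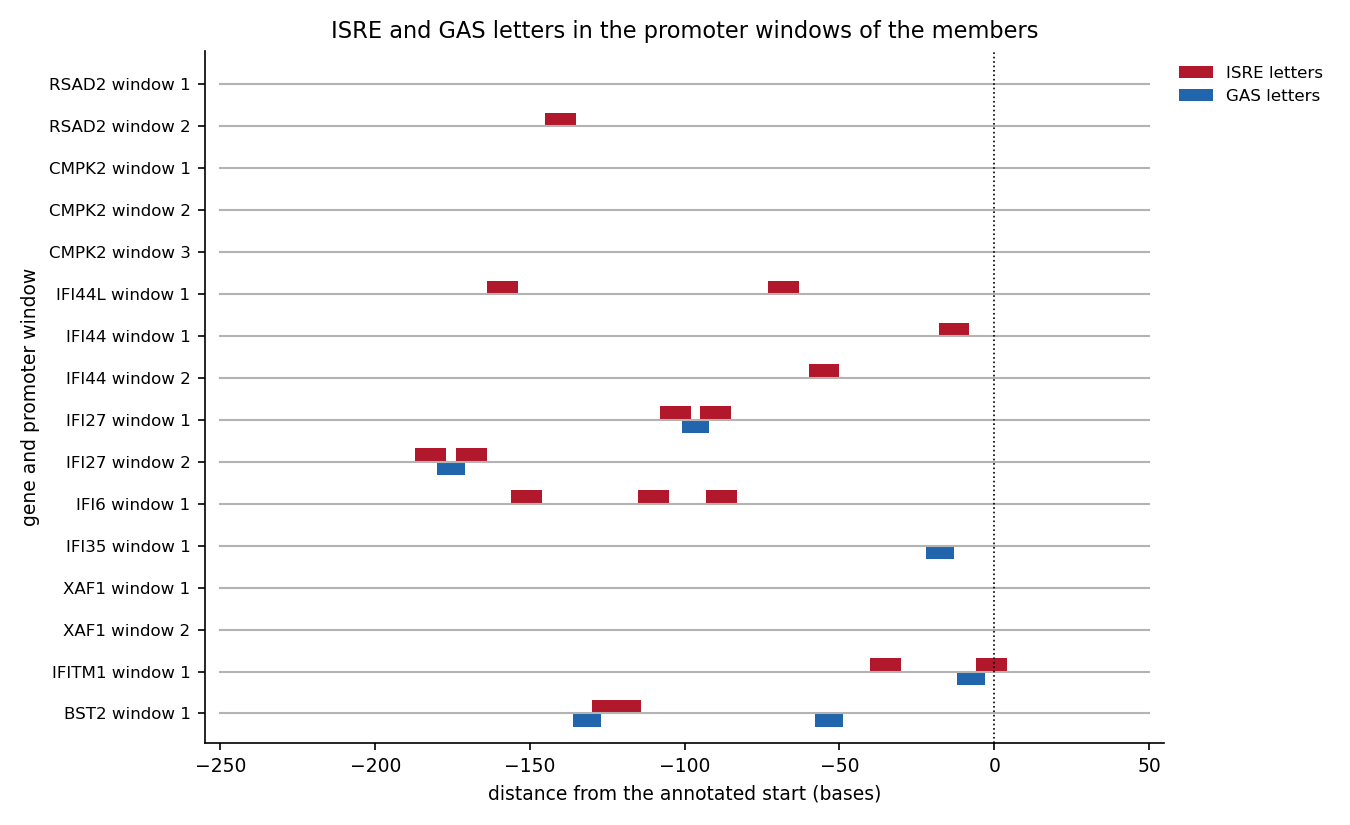
Positions of the ISRE letters (red, above the line) and of the GAS letters (blue, below the line) in the 16 promoter windows of the 10 genes, against the distance from the annotated start in bases. Matches lie in 9 windows of 7 genes for the ISRE, and CMPK2 and XAF1 have neither set of letters in any window.

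All values are deposited log2 values. Over all probe sets, Pearson correlations were 0.9947 to 0.9958 within the USP48 overexpression arrays, 0.9965 to 0.9968 within the empty vector arrays and 0.9807 to 0.9845 for pairs of arrays of unlike label. Spiked-in hybridization controls, 18 probe sets, averaged 10.09 ± 0.10 in the USP48 overexpression arrays and 9.79 ± 0.04 in the empty vector arrays (SD, n = 3 each; two-sided exact permutation p = 0.1, which is the lowest value possible for groups of 3). Scaling the arrays on these controls lowers every difference by 0.294, and the calls of list genes that it ended are named with their lists. By limma 0 of the 5 USP48 probe sets were higher under the USP48 overexpression label, and 2 were lower (1 was higher and 2 lower at an unadjusted p under 0.05). The 2 were 220079_s_at at -0.82 and 220078_at at -0.63 (limma adjusted p = 0.00013 and 0.00085). The brightest probe set, 225925_s_at, was at 7.92 ± 0.09 in the USP48 overexpression arrays and 8.05 ± 0.06 in the empty vector arrays (SD, n = 3 each; limma adjusted p = 0.367). Whether these probe sets lie within the transferred sequence is unknown, and the groups are named by their labels. SNU-449 is labelled as a liver carcinoma line. Of 7 measured hepatocyte markers, 5 had means below the median of every array. ALB was among them, at 2.14 in the USP48 overexpression arrays and 2.07 in the empty vector arrays. Between the groups, 0 of the 7 were called different by limma, against 29.8% of all genes. With the control scaling, 3 were lower.

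Of the 14 member probe sets, 13 rose in the USP48 overexpression arrays and 0 were lower (limma, Benjamini-Hochberg adjusted p under 0.05 over all 54613 probe sets; also 13 and 0 at an unadjusted p under 0.05). Over all probe sets, 10.6% were called higher and 13.8% lower. Of all calls 43.4% were higher, against 7.90% with scaling on the hybridization controls, which left 11 member probe sets higher and 1 lower. At least 2-fold increases were called for 10 of the 14, against 1.24% of all probe sets. The median log2 difference of the 14 was 2.62, against 0.03 for all probe sets. Counted once per gene, by the brightest probe set, 9 of the 10 genes were higher and 0 lower, against 15.7% and 14.1% of all genes (29.8% in either direction), and 8 rose at least 2-fold, against 1.83% of all genes. The exception was CMPK2. In 13 of the 14 probe sets every USP48 overexpression array lay above every empty vector array, as in 18.8% of all probe sets. In bulk RNA, a larger share of cells expressing a gene and more RNA per cell cannot be told apart. These members were chosen with earlier results of the same arrays known, so the counts describe them.

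**Figure D2:**
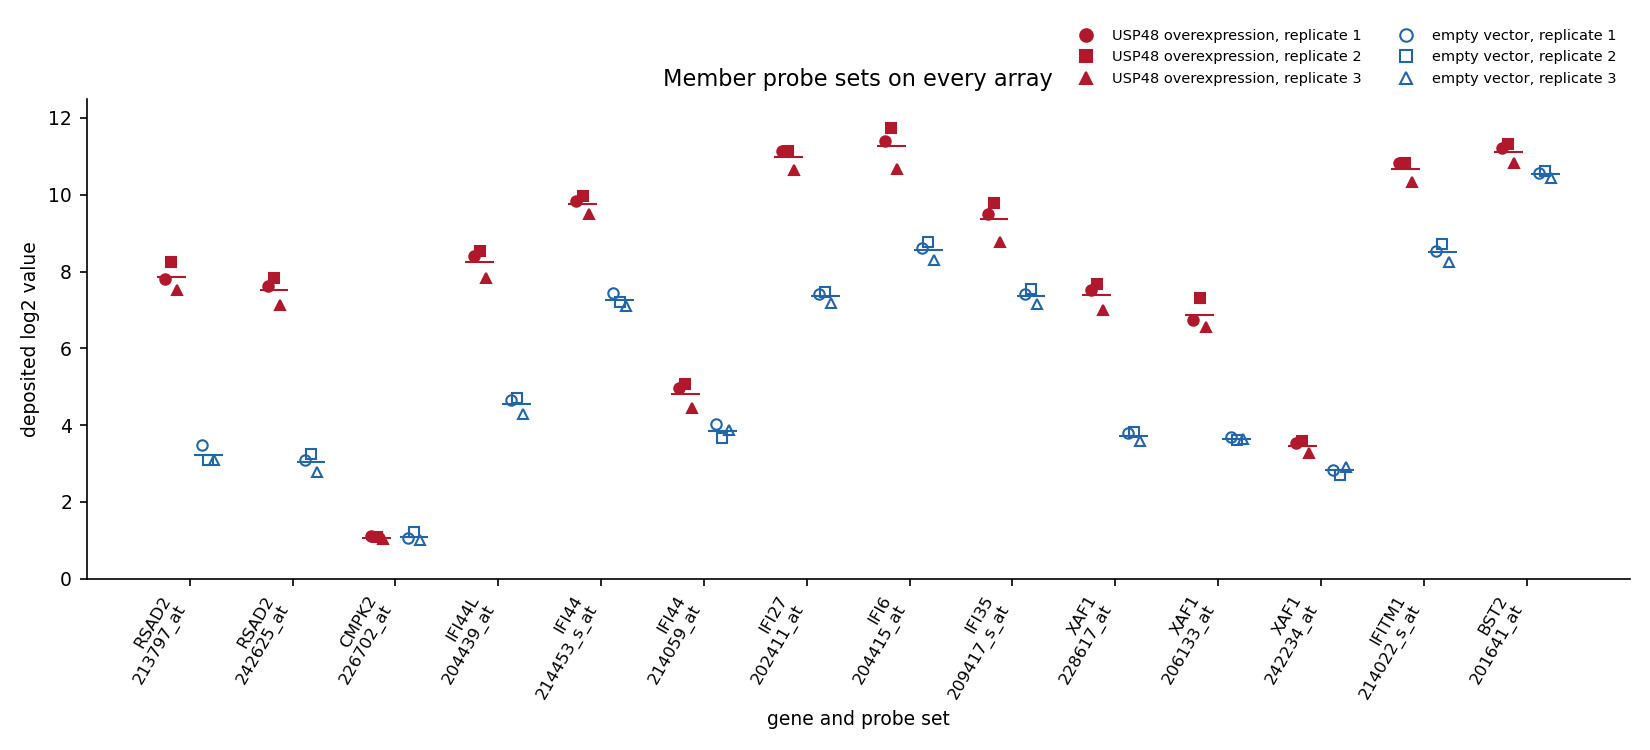
Deposited log2 values of the 14 member probe sets on each of the 6 arrays, with the USP48 overexpression arrays (filled) left of the empty vector arrays (open) and lines at the group means. The groups overlap for CMPK2 alone, and the gap between the lowest USP48 overexpression array and the highest empty vector array ranges from 0.22 for BST2 to 4.04 for RSAD2 among the others.

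RSAD2, which encodes viperin, rose in both of its probe sets. Probe set 213797_at was at 7.81, 8.26 and 7.51 in USP48 overexpression replicates 1 to 3, against 3.47, 3.08 and 3.08 in empty vector replicates 1 to 3. The second probe set, 242625_at, was at 7.62, 7.83 and 7.13 in the USP48 overexpression arrays, against 3.09, 3.24 and 2.78 in the empty vector arrays. All USP48 overexpression arrays lay far above all empty vector arrays in both probe sets. The log2 differences were 4.65 (SE 0.18) and 4.49 (SE 0.17), each with a limma adjusted p of 2.7e-07. The empty vector means, 3.21 ± 0.23 and 3.04 ± 0.24 (SD, n = 3), lay below the median of every array, so that no fold is given.

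CMPK2, a mitochondrial nucleotide kinase that supplies the substrate from which viperin makes its product, is the chromosomal neighbour of RSAD2. Its single probe set, 226702_at, was at 1.10, 1.09 and 1.03 in the USP48 overexpression arrays, against 1.06, 1.22 and 1.0 in the empty vector arrays. The groups overlapped, and every value lay below the median of its array. The log2 difference was -0.02 (95% interval -0.23 to 0.19; limma adjusted p = 0.906). Scaling on the hybridization controls moved it to -0.31 (limma adjusted p = 0.046), which was then called lower. No detection call was made, and these are values of 1 dim probe set.

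IFI44L and IFI44 are adjacent related genes, both induced by interferon. IFI44L was at 8.40, 8.53 and 7.83 in the USP48 overexpression arrays, against 4.66, 4.70 and 4.29 in the empty vector arrays. The groups were widely apart, and the rise was 13.0-fold (log2 difference 3.70, SE 0.18, limma adjusted p = 6.1e-07). For IFI44, probe set 214453_s_at was at 9.85, 9.98 and 9.49 in the USP48 overexpression arrays, against 7.44, 7.22 and 7.10 in the empty vector arrays. This was a rise of 5.73-fold (log2 difference 2.52, SE 0.14, limma adjusted p = 1.4e-06). The dimmer IFI44 probe set 214059_at was at 4.96, 5.08 and 4.44 in the USP48 overexpression arrays, against 4.03, 3.66 and 3.88 in the empty vector arrays, and also rose, by 0.97 (SE 0.16, limma adjusted p = 0.0012). The 2 IFI44 probe sets thus pointed the same way with sizes that differed by 1.55 on the log2 scale.

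IFI27 and IFI6 belong to one family of small mitochondrial and endoplasmic reticulum proteins that modulate apoptosis. IFI27 was at 11.15, 11.15 and 10.64 in the USP48 overexpression arrays, against 7.42, 7.47 and 7.19 in the empty vector arrays. It rose 12.3-fold (log2 difference 3.62, SE 0.14, limma adjusted p = 3.2e-07). IFI6 was at 11.41, 11.75 and 10.68 in the USP48 overexpression arrays, against 8.61, 8.76 and 8.29 in the empty vector arrays, and rose 6.61-fold (log2 difference 2.73, SE 0.23, limma adjusted p = 1.5e-05). IFI6 had the widest spread of the members within the USP48 overexpression group, with an SD of 0.55.

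IFI35, a leucine zipper protein that forms a complex with NMI, was at 9.50, 9.79 and 8.78 in the USP48 overexpression arrays, against 7.42, 7.54 and 7.15 in the empty vector arrays. The rise was 3.96-fold (log2 difference 1.99, SE 0.21, limma adjusted p = 7.4e-05), and the groups did not overlap. NMI itself was at 9.23 ± 0.16 in the USP48 overexpression arrays and 8.25 ± 0.09 in the empty vector arrays (SD, n = 3 each), a log2 difference of 0.98 (limma adjusted p = 4.8e-05 over all genes).

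XAF1 binds the caspase inhibitor XIAP and counters it. Its probe set 228617_at was at 7.53, 7.68 and 7.0 in the USP48 overexpression arrays, against 3.79, 3.82 and 3.58 in the empty vector arrays. Probe set 206133_at was at 6.74, 7.30 and 6.55 in the USP48 overexpression arrays, against 3.70, 3.60 and 3.63 in the empty vector arrays. Both rose by more than 3 on the log2 scale, by 3.67 (SE 0.16, limma adjusted p = 4.5e-07) and 3.22 (SE 0.16, limma adjusted p = 8.8e-07). Their empty vector means, 3.73 ± 0.13 and 3.65 ± 0.05 (SD, n = 3), lay below the median of every array, so that no fold is given. The third, 242234_at, was dimmer than the median of every array in both groups, at 3.46 ± 0.17 in the USP48 overexpression arrays and 2.82 ± 0.11 in the empty vector arrays (SD, n = 3 each). Its log2 difference was 0.65 (limma adjusted p = 0.0015), and that call ended with scaling on the hybridization controls (0.35, adjusted p = 0.057). XIAP, read by its brightest probe set, was lower, at 7.10 ± 0.21 in the USP48 overexpression arrays and 7.86 ± 0.10 in the empty vector arrays (SD, n = 3 each; log2 difference -0.76, limma adjusted p = 0.00054 over all genes). Of the 7 XIAP probe sets, 5 were called lower and 2 higher, so its direction differed between probe sets.

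IFITM1 and BST2 are membrane proteins. IFITM1 was at 10.83, 10.84 and 10.33 in the USP48 overexpression arrays, against 8.53, 8.71 and 8.26 in the empty vector arrays, and rose 4.48-fold (log2 difference 2.16, SE 0.16, limma adjusted p = 6.0e-06). A probe set that the annotation assigns to both IFITM1 and IFITM2, and which the rule therefore leaves out, was at 10.58 ± 0.31 in the USP48 overexpression arrays and 8.71 ± 0.23 in the empty vector arrays (SD, n = 3 each; log2 difference 1.87, limma adjusted p = 1.7e-05). BST2 was at 11.21, 11.33 and 10.83 in the USP48 overexpression arrays, against 10.58, 10.61 and 10.43 in the empty vector arrays. It rose 1.497-fold (log2 difference 0.58, SE 0.13, limma adjusted p = 0.0073), the smallest of the called differences here. The BST2 call ended with the control-based scaling (0.29, adjusted p = 0.134), and its groups were 0.22 apart.

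**Figure D3:**
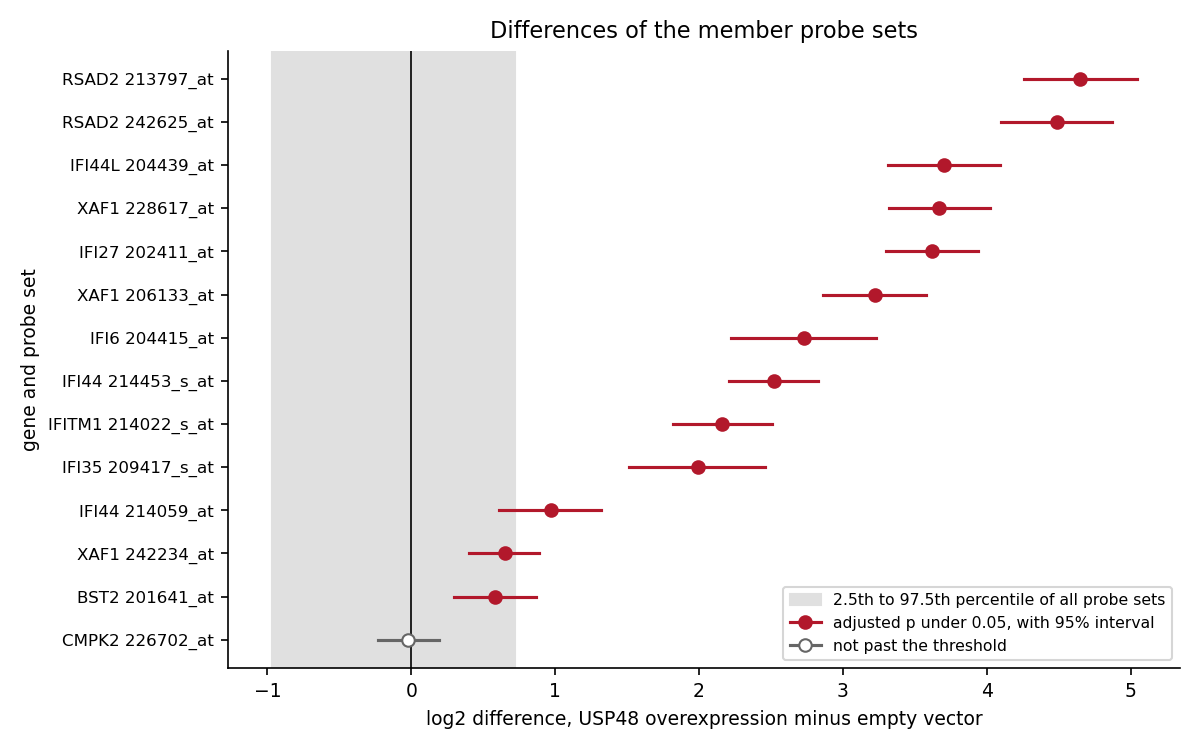
Log2 differences of the 14 member probe sets, USP48 overexpression minus empty vector, with 95% intervals from limma. The grey band runs from -0.97 to 0.72, the central 95% of all probe sets. The points of 11 probe sets lie above the band, and those of CMPK2, BST2 and XAF1 242234_at lie inside it.

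Members also varied together among the arrays of 1 group. USP48 overexpression replicate 3 was the lowest of its group in 14 of 14 member probe sets, against 33.9% of all probe sets and 38.9% of those called higher. USP48 overexpression replicate 2 was the highest in 13 of 14, against 36.3% of all probe sets. The median difference between USP48 overexpression replicate 3 and the mean of the other two arrays of its group was -0.52 over the members, with CMPK2 included, and 0.00 over all probe sets. Among 45 other interferon-induced genes, that array was lowest in 38. Empty vector replicate 3 was the lowest of its group in 11 of 14 member probe sets, against 33.5% of all probe sets.

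USP48 overexpression replicate 3 also stood apart in technical measures. For GAPDH, the 5′ minus the 3′ probe set, which falls as RNA degrades, was -0.51, -0.45 and -1.31 in USP48 overexpression replicates 1 to 3, against -0.32, -0.37 and -0.44 in the empty vector arrays. For ACTB it was -3.88, -3.44 and -4.14 in the USP48 overexpression arrays, against -3.26, -3.42 and -3.70 in the empty vector arrays, lowest in replicate 3 of both groups. Between the groups the exact permutation p was 0.1 for GAPDH and 0.2 for ACTB, which are no tests of that array. Its hybridization controls averaged 10.21, the highest of its group, and its poly-A controls 5.32, the lowest of its group. The 24 poly-A control probe sets averaged 5.55 ± 0.24 in the USP48 overexpression arrays and 5.13 ± 0.13 in the empty vector arrays (SD, n = 3 each; two-sided exact permutation p = 0.1). Their part in the order of the arrays was not tested. Without that array all 13 calls were kept, and the median difference of the members was 2.84 in place of 2.62.

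**Figure D4:**
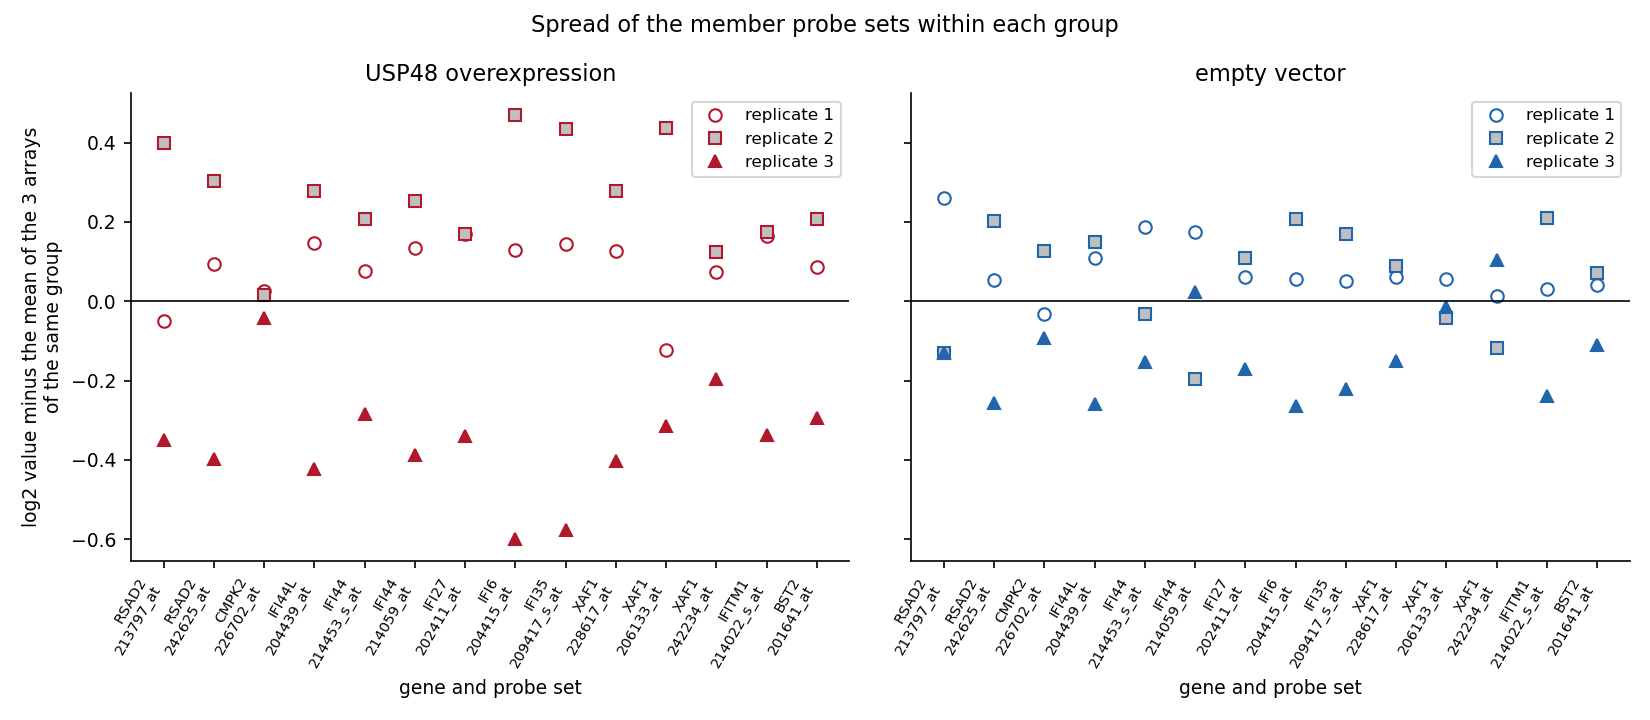
Log2 value of each member probe set minus the mean of the 3 arrays of its own group, for the USP48 overexpression arrays (left) and the empty vector arrays (right). Replicate 3 of the USP48 overexpression arrays (filled triangles) is lowest in 14 of 14 probe sets, and replicate 3 of the empty vector arrays in 11 of 14.

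Probe sets of one gene were set against each other in 5 pairs. The 2 RSAD2 probe sets differed in their change by 0.16 on the log2 scale (two-sided exact permutation p = 0.5, 0.5 adjusted over the 5 pairs). The brighter IFI44 probe set rose by 1.55 more than the dimmer one, and the 2 bright XAF1 probe sets rose by 3.03 and 2.57 more than the dim one and differed by 0.46 from each other. Each of those 4 pairs had an exact permutation p of 0.1, the smallest possible, or 0.125 after adjustment. The dim XAF1 probe set lay below the median of every array in both groups, and the part of its low level in its smaller change was not tested.

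Related and neighbouring genes were compared next. IFITM2 and IFITM3, the close relatives on either side of IFITM1, were at 11.48 ± 0.18 and 11.71 ± 0.19 in the USP48 overexpression arrays, against 10.84 ± 0.09 and 10.94 ± 0.10 in the empty vector arrays (SD, n = 3 each). They rose by 0.64 and 0.77 (limma adjusted p = 0.0011 and 0.00038 over all genes), and the IFITM2 call ended with scaling on the hybridization controls (0.35, adjusted p = 0.051). IFITM1 rose by 1.52 more than IFITM2 and by 1.39 more than IFITM3, with no overlap between the groups (exact permutation p = 0.1 each, the smallest possible, and 0.1 adjusted over 6 pairs of genes picked after their values were seen). The IFITM2 and IFITM3 probe sets carry the suffix _x_at, which marks probes that can match other transcripts, so signal of one gene in the probe set of another cannot be told apart here. IFI27L1 and IFI27L2, the relatives on either side of IFI27, had log2 differences of 0.05 (95% interval -0.13 to 0.23, limma adjusted p = 0.702) and 0.22 (95% interval 0.05 to 0.39, limma adjusted p = 0.054), against 3.62 for IFI27. Both turned negative with scaling on the hybridization controls, to -0.24 and -0.07, and IFI27L2 passed with quantile normalization (adjusted p = 0.024), an intensity-dependent prior (0.044), without the dimmest 33.3% (0.028) and with the mean of probe sets (0.031).

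Of 15 measured protein-coding genes that flank the members and are not members themselves, 3 were called higher and 0 lower (1 lower at an unadjusted p under 0.05), with a median log2 difference of 0.11, against 15.7% and 14.1% of all genes and a median of 0.05. The 3 are IFITM2, IFITM3 and SOX11. Of the 15, 7 had means over the 6 arrays below the median of every array. SOX11, a developmental transcription factor next to CMPK2, was at 2.86 ± 0.20 in the USP48 overexpression arrays and 2.47 ± 0.05 in the empty vector arrays (SD, n = 3 each), both below the median of every array. Its difference of 0.38 (limma adjusted p = 0.020) did not pass with scaling on the hybridization controls (0.09, adjusted p = 0.541) or without any 1 of 4 arrays, namely USP48 overexpression replicates 2 and 3 and empty vector replicates 1 and 3 (adjusted p up to 0.074). Over the alternatives, 2 to 5 neighbours were higher, except with the control-based scaling, where 1 was higher and 2 were lower. Those 2 were MVB12A next to BST2 (-0.44, adjusted p = 0.027) and VAT1 next to IFI35 (-0.51, adjusted p = 0.0015). With an intensity-dependent prior, VAT1 was also called lower (-0.22, limma adjusted p = 0.048). The 5 came without USP48 overexpression replicate 1, when FGR next to IFI6 was at 0.44 and PTGFR next to IFI44L at 0.58. RNF144A, which flanks RSAD2, was at 0.05 and did not pass. These neighbours were named after their values were seen.

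The wider interferon pathway was counted with 1 probe set per gene. Of 45 other interferon-induced genes, 43 were higher and 0 lower (0 lower also at an unadjusted p under 0.05). Over all genes, 15.7% were higher and 14.1% lower. The median log2 difference of the 45 was 1.90, against 2.62 for the 10 members and 0.05 for all genes. With the probe sets of a gene averaged, the medians were 2.34 for the members and 1.53 for the 45 genes. The 4 with the highest differences were the RNA sensor RIGI at 4.40, the GTPase MX2 at 3.85, the exonuclease ISG20 at 3.50 and the RNA-binding protein IFIT1 at 3.41. Some of these genes had probe sets that disagreed. A dimmer RIGI probe set was at -0.04, and EIF2AK2, a kinase activated by double-stranded RNA, was higher by its brightest probe set (0.82) while another probe set was lower (-1.20, limma adjusted p = 5.4e-05) and the mean of its probe sets was at -0.19 (adjusted p = 0.138). EPSTI1 at -0.19 and TRIM25 at -0.07 did not pass. They and EIF2AK2 were named after their values were seen. The EPSTI1 probe set read here was at 2.42 in the USP48 overexpression arrays and 2.61 in the empty vector arrays. Both means lay below the median of every array. TRIM25 was at 0.01 without USP48 overexpression replicate 1 (limma adjusted p = 0.959) and at 0.84 with the mean of its probe sets (limma adjusted p = 0.00013), and with scaling on the hybridization controls 38 genes were higher and 2, EPSTI1 and TRIM25, lower. That scaling ended the calls of MX1, GBP2, GBP4, PARP14 and DDX60. The GBP4 call also ended without USP48 overexpression replicate 1 or 2 or empty vector replicate 1 (limma adjusted p up to 0.079). GBP4 did not pass an adjusted p under 0.01 either, and its means lay below the median of every array in both groups.

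Of 9 measured interferon ligands, 3 were higher and 0 lower by limma, against 15.7% and 14.1% of all genes. At an unadjusted p under 0.05, 0 were lower too. Of the 9, 8 had means over the 6 arrays below the median of every array. IFNB1, the ligand of the type I receptor made by many non-immune cells, was at 5.26, 5.69 and 5.60 in the USP48 overexpression arrays, against 2.31, 2.74 and 2.47 in the empty vector arrays. The groups were well apart (log2 difference 3.01, SE 0.14, limma adjusted p = 3.6e-07), and replicate 3 was not the lowest USP48 overexpression array for this gene. The empty vector mean, 2.51, lay below the median of every array, so that no fold is given. The type III ligand IFNL1, at 0.69, had the same limit. IFNL2, at 0.56, lay below the median of every array in both groups. The calls of IFNL1 and IFNL2 ended with the control-based scaling (adjusted p = 0.053 and 0.193). The IFNL2 call also ended without empty vector replicate 1 (adjusted p = 0.053).

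Of 14 measured receptor and signalling genes, 8 were higher and 2 lower, against 15.7% and 14.1% of all genes. Their median was 0.41, and 5 were higher and 5 lower with scaling on the hybridization controls. The regulatory factors IRF7 at 2.49, IRF1 at 1.65, IRF9 at 1.23 and IRF2 at 0.77 had the largest differences and kept their calls with that scaling. The 2 lower genes, named after their values were seen, are the type I receptor chains IFNAR1 at -0.55 and IFNAR2 at -0.48 (limma adjusted p = 0.010 and 0.0022). With the mean of their probe sets IFNAR1 was at -0.27 (adjusted p = 0.122) and IFNAR2 at 0.09 (adjusted p = 0.449). Another IFNAR2 probe set was called higher (0.38, limma adjusted p = 0.0089). The control-based scaling ended the calls of IFNGR1, IFNGR2 and IRF3. Of 4 proteins known to bind members, NMI was higher and XIAP and FKBP5 were lower. VAPA was at -0.22 by its brightest probe set, which did not pass (limma adjusted p = 0.075), but 3 of its 5 probe sets were called lower, and their mean was at -0.39 (limma adjusted p = 0.0026). VAPA was also called lower with the control-based scaling, with an intensity-dependent prior and without the dimmest 33.3%. FKBP5, which binds IFI44 and IFI44L, was at -0.45 (limma adjusted p = 0.031) and lost its call when its probe sets were averaged (adjusted p = 0.181) or without USP48 overexpression replicate 1 or 2 or empty vector replicate 2 or 3 (adjusted p up to 0.115).

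**Figure D5:**
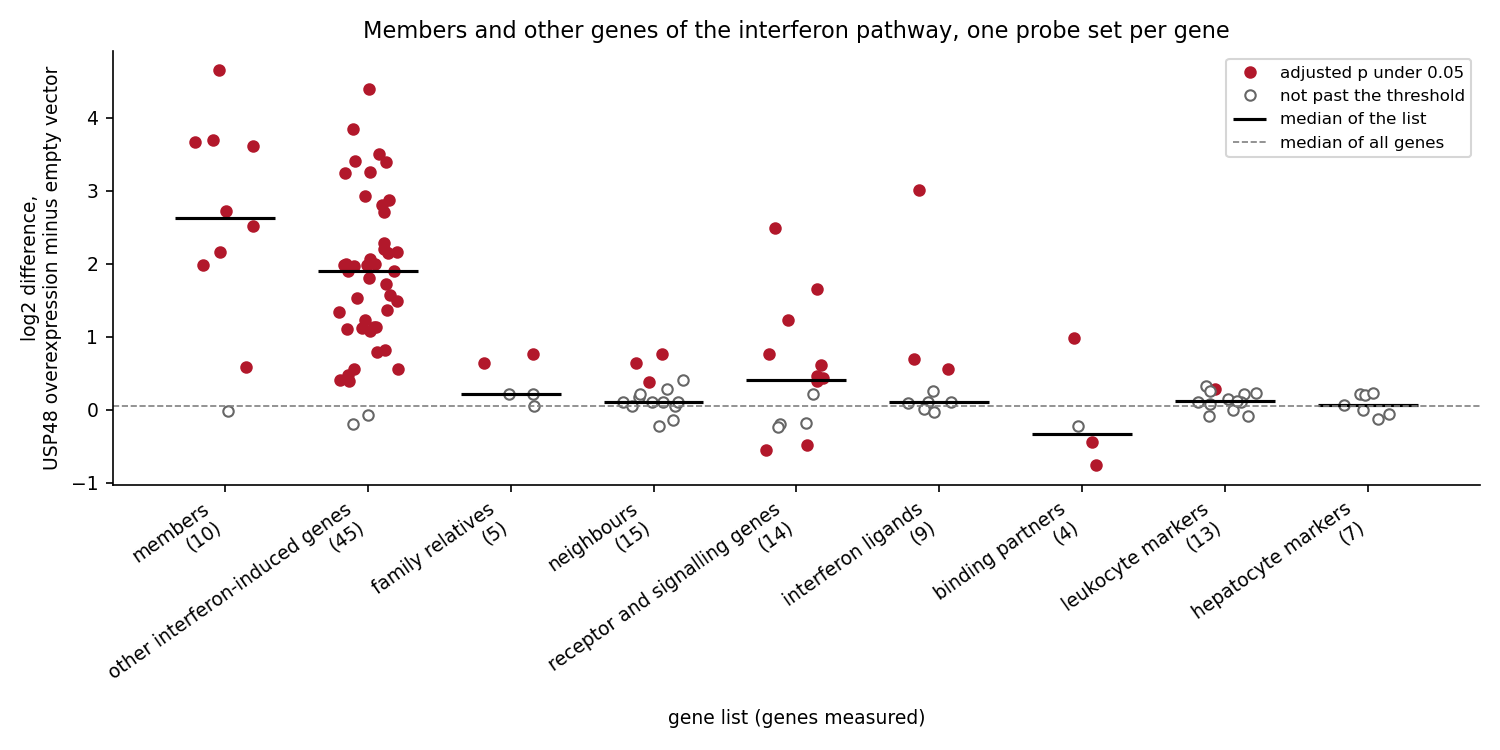
Log2 differences, USP48 overexpression minus empty vector, for the members and other gene lists, with 1 probe set per gene, filled points past an adjusted p of 0.05 and lines at the list medians. The medians are 2.62 for the members, 1.90 for the other interferon-induced genes and 0.05 for all genes.

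Leukocytes, which also express interferon-induced genes, were checked by their markers, since BST2 marks plasmacytoid dendritic cells. Of 13 measured leukocyte markers 1 was higher and 0 lower, against 15.7% and 14.1% of all genes. Means of 8 markers lay below the median of every array. Over the alternatives 0 to 4 were higher, with 4 when the probe sets of a gene were averaged and 0 without any 1 empty vector array. CLEC4C, a plasmacytoid dendritic cell marker named after its values were seen, was at 2.35 ± 0.15 in the USP48 overexpression arrays and 2.09 ± 0.03 in the empty vector arrays (SD, n = 3 each), below the median of every array. Its difference of 0.26 (limma adjusted p = 0.057) passed with the average of its probe sets (0.29, adjusted p = 0.020) and without USP48 overexpression replicate 2 (0.32, adjusted p = 0.045). It was at -0.03 with the control-based scaling. The other plasmacytoid dendritic cell markers, LILRA4 at 0.10 and IL3RA at 0.12, did not pass (limma adjusted p = 0.611 and 0.361). The part of such cells in the interferon-induced values was not tested. The mean of the 13 ranged from 3.37 to 3.46 in the USP48 overexpression arrays and from 3.22 to 3.35 in the empty vector arrays. PTPRC, a marker of all leukocytes, was at 1.88 in the USP48 overexpression arrays and 1.96 in the empty vector arrays. CD2, the marker called higher, was at 0.29 (limma adjusted p = 0.036), at -0.01 with the control-based scaling, and did not pass with an intensity trend in the prior (adjusted p = 0.051) or without any 1 array other than USP48 overexpression replicate 3 (adjusted p up to 0.139).

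The 5 genes outside the set whose profile over the 6 arrays lay closest to the mean of the members were IRF7, TMEM140, ISG15, GBP1 and SP110. Likeness was the root-mean-square distance, over the 6 arrays, between a gene's values minus its own empty vector mean and the mean of the same values of the 10 members. The distances were 0.140 for IRF7, 0.160 for TMEM140, 0.181 for ISG15, 0.205 for GBP1 and 0.209 for SP110 on the log2 scale. The mean of the members was at 2.66, 2.82 and 2.19 above its empty vector mean in the USP48 overexpression arrays, against 0.08, 0.10 and -0.18 in the empty vector arrays. IRF7 was at 2.51, 2.67 and 2.29 in the USP48 overexpression arrays, against -0.11, 0.22 and -0.10 in the empty vector arrays on that scale. The choice by distance fixes the direction of these genes, so it is no result.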

How the data were processed

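The deposited log2 values, 1 per probe set and array, come from the authors' RMA run, as the submitters' processing notes name it. Its settings and version were not given in the sources used. The lowest value was 0.19, and array medians ran from 3.74 to 3.79. Values this low are unusual for RMA, and whether a further step was applied is not known. RMA equalises probe signals between arrays, which hides any change in total RNA, and the number of arrays limits the precision. Of 54675 probe sets, 62 controls were left out of the tests. Gene names came from the platform annotation, of whose 41091 probe sets with 1 symbol 41037 matched RefSeq (GRCh38.p14).

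Tests used limma 3.58.1 under R 4.3.3 (lmFit and eBayes, two-sided, with Benjamini-Hochberg adjustment), per probe set over 54613 probe sets or per gene over 19775 genes, each read by its brightest probe set over the 6 arrays. Values from the gene fit are those given over all genes or for lists. Differences are USP48 overexpression minus empty vector. Single measures were compared by exact permutation. No detection calls were used. Members and lists were chosen with earlier results of these data known. Named were USP48, all members, up to 4 called genes of each list with the largest differences (2 where none was called), called neighbours and the 5 genes with the closest profiles. Listed genes without a probe set of their own were not analysed here. Alternatives were quantile normalization, median centring, scaling on the hybridization controls, an intensity trend with robust prior, leaving out the dimmest 33.3%, the replicate number as a block, each array left out, an adjusted p under 0.01, leaving out _x_at probe sets and the mean of the probe sets of a gene. Python 3.11.15 and matplotlib 3.10.9 drew the figures.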

Additional observations from a re-analysis of the deposited data

How the results depend on the processing

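All 14 alternatives were run for probe sets, and 14 for genes. The member probe sets gave 195 values, of which 190 kept their direction and side of the threshold. The same 13 were called higher in each, except with scaling on the hybridization controls, where 11 were higher and 1 lower, BST2 and XAF1 242234_at missed the threshold and CMPK2 passed it at -0.31. With that scaling 1 member gene and 2 other interferon-induced genes were lower, against 0 each, 4 USP48 probe sets were lower, and USP48 229812_at was at -0.05. With quantile normalization 1 USP48 probe set, 229812_at, was higher, at 0.30. CMPK2 was at 0.00 without USP48 overexpression replicate 3 and at 0.04 without empty vector replicate 2, and lay between -0.07 and 0.04 over the 6 arrays left out in turn. Over these 6, the median member difference was 2.45 to 2.84, and it was 2.33 with scaling on the hybridization controls. The causes of these changes were not tested beyond the shift of 0.294 that the scaling itself subtracts, which puts the median of all probe sets at -0.26. CMPK2 was among the dimmest 33.3% and had no value without them.

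Over all probe sets, the replicate numbers did not pair the samples. Deviations of same-numbered arrays correlated at -0.020, 0.108 and -0.018, and only number 2 correlated best with its own number. Among the 14 member probe sets, replicate 3 was lowest in 14 for USP48 overexpression and in 11 for empty vector. Replicate 2 was highest in 13 and 9 of them. A pairing for the members alone was not tested. With the replicate block, 13 member probe sets and 9 member genes were higher, and 12702 probe sets were called in all, against 13287 without it.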

Other observations

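Epithelial and mesenchymal markers were also read. Of 7 measured, 1 was higher and 4 lower in the USP48 overexpression arrays (limma, adjusted p under 0.05), against 15.7% and 14.1% of all genes. With the probe sets of a gene averaged, 2 were lower. FN1, the matrix glycoprotein fibronectin, was at 10.51, 10.69 and 9.58 in the USP48 overexpression arrays, against 8.82, 8.89 and 8.63 in the empty vector arrays (log2 difference 1.48, limma adjusted p = 0.00073), with replicate 3 the lowest of both groups as for most members. CDH2 at -0.65, VIM at -0.42 and EPCAM at -0.42, an epithelial adhesion protein, were among the 4 that fell, and VIM missed the threshold when its probe sets were averaged (-0.27, adjusted p = 0.055). The fourth, CDH1 at -0.38, lay below the median of every array and missed the threshold with its probe sets averaged, at an adjusted p under 0.01, and without USP48 overexpression replicate 1 or empty vector replicate 1 or 2 (adjusted p up to 0.076). The 2 hepatocyte markers with the largest differences were SERPINA1 at 0.23 and AFP at 0.21, and neither passed. AFP did without empty vector replicate 3 (0.38, adjusted p = 0.024) and SERPINA1 without USP48 overexpression replicate 2 (0.28, adjusted p = 0.043).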
